A study of Mus musculus with 9 samples.

Results

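Transcripts of 48 genes of the cell division cycle were compared in 3 mouse stromal cell lines: 11 that act in G1, 18 of S phase and 19 of mitosis. The genes were listed by name, with earlier results of these data known. Every probe set (a group of oligonucleotide probes for 1 transcript) whose annotation gives exactly 1 of these symbols was taken. Of the 48, 47 had at least 1 such probe set, 87 probe sets in all among 36899 on the arrays. Ccnb1, the cyclin B1 gene, had none. The series compared AGM-s3-A9 and AGM-s3-A7, stromal lines from the aorta-gonad-mesonephros region of the embryo, with OP9, a line from the calvaria of newborn mice. AGM-s3-A9 and OP9 are labelled as supporting hematopoiesis and AGM-s3-A7 as not supporting it. Total RNA of each line was hybridised to 3 array types with different probe sets (MG-U74A and its companions MG-U74B, MG-U74C), 1 array each, 9 in all. No treatment, passage, culture density or genotype is given for any line in the sources used here. OP9 is known as a line from mice without functional macrophage colony-stimulating factor.

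A dividing cell passes through G1, copies its DNA in S phase and separates the copies in mitosis. D-type and E-type cyclins with their kinases inactivate the retinoblastoma protein in G1, which frees E2F factors to switch on replication genes. Origins of replication are loaded with the MCM helicase, and later a second wave of genes, for cyclin B, the Aurora and Polo kinases, kinesins and the spindle checkpoint, is transcribed for mitosis. Transcripts of this second wave are low or absent in resting cells, so they are used as markers of cycling cells. In RNA from whole cultures, fewer cycling cells and less RNA per cycling cell cannot be told apart.

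The lines carried the transcripts of stromal cells. Of 7 stromal markers 6 lay above the detection level in both AGM lines and 5 in OP9, among them Col1a1, at a normalized intensity of 6174 in AGM-s3-A7, compared with 6684 in AGM-s3-A9 and 3539 in OP9. Thy1 was at 4.61 in OP9, and Vim, read by only 1 probe set, was below the detection level in all 3 lines. Summed over the stromal list, intensities were 16278, 16635 and 8549 in AGM-s3-A7, AGM-s3-A9 and OP9, and the part of this in the OP9 results was not tested. All 7 hematopoietic and all 4 endothelial markers with a probe set were below it in each line, with Ptprc between 0.90 and 2.31, and 2 of 4 epithelial markers, Cdh1 and Epcam, were above it in each line. The ratio of 3' to 5' signal was 0.88 to 1.002 for Gapdh and 1.07 to 1.26 for actin. As deposited, the AGM-s3-A9 array was the brightest on MG-U74A, with a trimmed mean of 188 against 117 in AGM-s3-A7 and 122 in OP9, and the dimmest on MG-U74B (46.2 against 59.2 and 69.2). Intensities were therefore quantile normalized within each array type.

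A gene was represented by its probe set with the highest mean over the lines. It counted as tested where that mean lay above the detection level, the higher of the array type's median and the 95th percentile of 34 negative control probe sets: 49.0 for MG-U74A, 52.8 for MG-U74B, 61.6 for MG-U74C. Values below the level were raised to it before a ratio was formed, and such a fold is written "at least". Of the 47 members 36 were tested (8 of G1, 13 of S phase and 15 of mitosis), 33 of them on MG-U74A. With 1 array per line and type there is no replicate error and no statistical test, and "tested" says only that a gene entered the comparison. Pairs of tested probe sets for the same gene on 1 array type, over 1355 genes, gave a robust SD of the log2 ratio of 0.31 when AGM-s3-A9 was set against AGM-s3-A7, 0.32 when OP9 was, and 0.35 between AGM-s3-A9 and OP9. This SD covers disagreement between probe sets on the same arrays only, and not variation between arrays, RNA samples or cultures. Where 3 intensities follow without names, the first is AGM-s3-A7, the second AGM-s3-A9 and the third OP9.

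**Figure D1:**
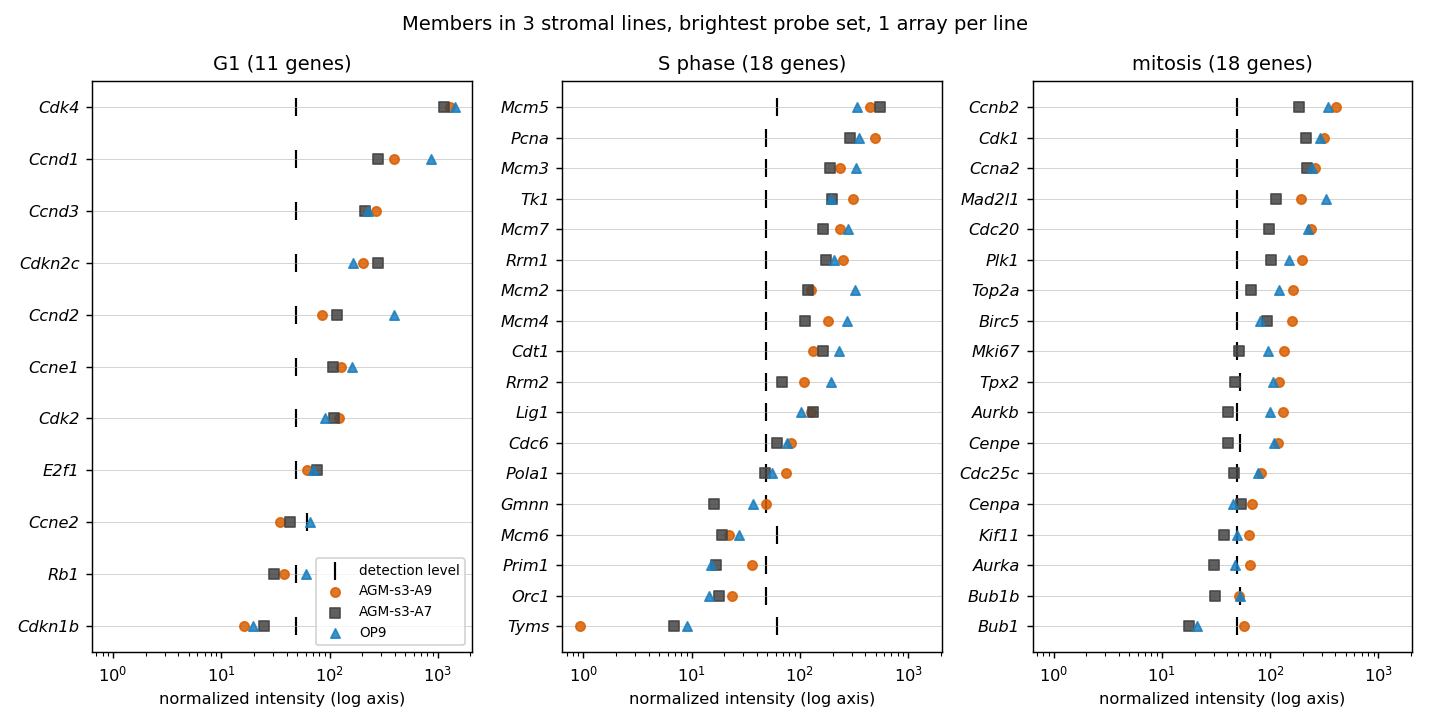
Normalized intensity (log axis) of the brightest probe set of 47 members in AGM-s3-A9 (circles), AGM-s3-A7 (squares) and OP9 (triangles), 1 array each, with the detection level as a vertical bar. Among the mitosis genes the AGM-s3-A7 square lies at the left for most genes, as for Mki67 at 51.3 against 133 and 95.4, while Ccnd1 and Ccnd2 stand out in OP9 at 871 and 396.

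Of the AGM lines, AGM-s3-A9 had the higher mitosis transcripts, and the median difference from AGM-s3-A7 was smallest for G1 and largest for mitosis. The median log2 ratio was 0.17 over the 8 tested G1 members, 0.51 over the 13 of S phase and 0.93 over the 15 of mitosis, beside 0 over all 8192 tested genes. By fold, 7 of the 36 tested members were at least 2-fold higher (19.4%, against 3.22% of all tested genes) and 0 at least 2-fold lower (against 2.31%). All 7 were mitosis genes: Aurkb, Mki67, Top2a, Cdc20, Tpx2, Cenpe and Ccnb2. This rests on the probe set chosen for each gene, since Mcm5 of S phase was 2.42-fold higher on another of its probe sets. All 15 tested mitosis members had a ratio above 1, the smallest being that of Ccna2. For Aurkb, Cdc25c, Cenpe, Tpx2 and Kif11, AGM-s3-A7 lay below the detection level and was raised to it. Their ratios could therefore not fall below 1, and this part of the count was fixed in advance. With the detection level raised to the 75th percentile of all values, 22 members were tested and 1, Ccnb2, was at least 2-fold higher (against 2.59% of all tested genes under that setting). Aurkb, Mki67 and Top2a were then not tested, and Cdc20, Cenpe and Tpx2 had log2 ratios of 0.48, 0.57 and 0.61 with the level raised.

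For OP9 against AGM-s3-A7 the medians were 0.22 in G1, 0.31 in S phase and 0.86 in mitosis, beside 0.03 over all tested genes. Here 10 of the 36 were at least 2-fold higher (27.8%, against 5.40% of all tested genes) and 0 at least 2-fold lower (against 6.30%). They were the G1 cyclins Ccnd1 and Ccnd2, the S phase genes Mcm2, Mcm4 and Rrm2, and Mad2l1, Cdc20, Cenpe, Aurkb and Tpx2 of mitosis. For Cenpe, Aurkb and Tpx2 AGM-s3-A7 lay below the detection level and was raised to it, which gave at least 2.05-fold, 2.02-fold and 2.01-fold. Their ratios could not fall below 1, so the direction of this part of the count was fixed in advance. With the detection level at the 75th percentile 2 of 22 were at least 2-fold higher (against 4.77% of all tested genes under that setting). This comparison uses the same AGM-s3-A7 arrays as the one before, so these comparisons are not independent. Counted over all 47 members with a probe set, with no filter, the numbers at least 2-fold higher were again 7 and 10. Of all 15964 genes, 1.66% and 2.81% were at this fold under that setting. The medians were then 0.36 and 0.27 over the members, and 0.77 and 0.59 over the mitosis members.

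**Figure D2:**
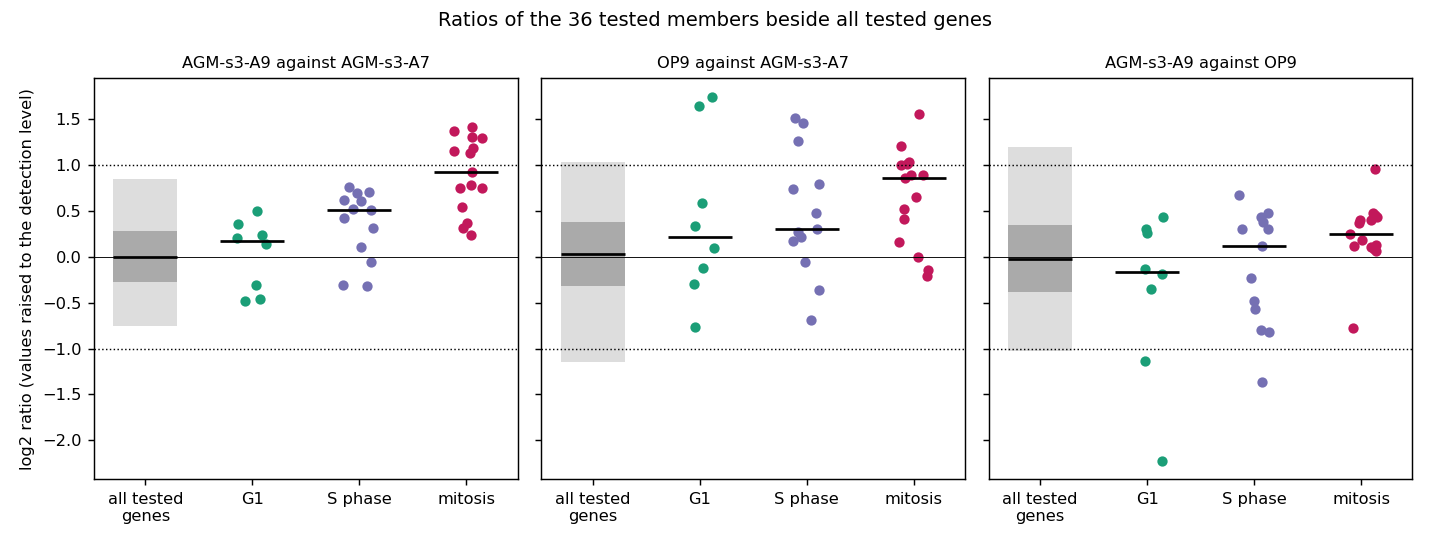
Log2 ratios of the 36 tested members by list (points) for 3 pairs of lines, with the list's median as a line; grey bars show the 5th to 95th and, darker, the 25th to 75th percentile of all 8192 tested genes, and dotted lines mark 2-fold. The mitosis median is 0.93 for AGM-s3-A9 and 0.86 for OP9 in the panels against AGM-s3-A7, and 0.25 in the panel of AGM-s3-A9 and OP9.

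Among the mitosis genes, Mki67, whose protein Ki-67 coats mitotic chromosomes and is the usual marker of cycling cells, was at 51.3 in AGM-s3-A7, beside 133 in AGM-s3-A9 and 95.4 in OP9. AGM-s3-A7 lay just above the detection level, and Mki67 in AGM-s3-A9 was 2.60-fold and in OP9 1.86-fold above it. Its other probe set, not tested, read 38.1, 51.9 and 42.5 in the same order. Top2a, the DNA topoisomerase that untangles sister chromatids, was at 66.5 in AGM-s3-A7, next to 164 in AGM-s3-A9 and 121 in OP9. The excess over AGM-s3-A7 was 2.47-fold and 1.82-fold. Cdc20, an activator of the anaphase-promoting complex, was at 97.3, 239 and 224, or 2.45-fold and 2.31-fold higher than in AGM-s3-A7. For both genes AGM-s3-A7 was the lowest line, and for Cdc20 the other lines differed by 1.06-fold.

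The mitotic cyclin gene Ccnb2 was at 183 in AGM-s3-A7, compared with 403 in AGM-s3-A9 and 339 in OP9, an excess of 2.20-fold and 1.85-fold. Its partner kinase gene Cdk1 was at 216, 315 and 289, differences of 1.46-fold and 1.34-fold. Ccna2, the cyclin A2 gene, which acts in S phase as well as in mitosis, was nearly level at 218, 257 and 245. The cyclins and the kinase thus shared the order of the lines but not the size of the differences. Aurkb, the kinase of the chromosomal passenger complex, was below detection in AGM-s3-A7 (40.5) and reached 131 in AGM-s3-A9 and 99.2 in OP9, so these lines were at least 2.68-fold and at least 2.02-fold higher. Birc5, which encodes survivin of the same complex, was at 93.3, 158 and 81.1. Birc5 differed from Aurkb in OP9, where Birc5 was 1.15-fold below AGM-s3-A7.

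Cenpe, a kinetochore kinesin, and Tpx2, a spindle assembly factor that activates Aurora A, were read on MG-U74B. Cenpe was at 41.1 in AGM-s3-A7, beside 118 in AGM-s3-A9 and 109 in OP9, and Tpx2 at 47.0, 121 and 106. AGM-s3-A7 was below the detection level for both genes, which gives at least 2.23-fold and at least 2.28-fold for AGM-s3-A9 and at least 2.05-fold and at least 2.01-fold for OP9. As deposited, AGM-s3-A9 was the dimmest array of this type and OP9 the brightest. Before normalization Cenpe stood at 41.7, 95.6 and 131, and Tpx2 at 47.9, 98.1 and 129. Aurkb, Mki67, Top2a, Cdc20 and Ccnb2, the other members past 2-fold for AGM-s3-A9, were read on MG-U74A. There AGM-s3-A9 was the brightest array. Mad2l1, a spindle checkpoint protein gene, was highest in OP9, at 331 against 193 in AGM-s3-A9 and 113 in AGM-s3-A7. Relative to AGM-s3-A7, OP9 was 2.94-fold and AGM-s3-A9 1.72-fold higher. Plk1, the Polo-like kinase gene, was at 102, 195 and 148, or 1.90-fold and 1.44-fold higher than in AGM-s3-A7.

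Of the remaining tested mitosis members, Cdc25c, which encodes a phosphatase that activates Cdk1, was at 46.4, 82.7 and 76.9, with AGM-s3-A7 below detection, so that AGM-s3-A9 was at least 1.69-fold and OP9 at least 1.57-fold higher. Cenpa, the centromeric histone gene, and Kif11, a spindle kinesin gene, were close to the level in every line, between 37.4 and 67.5. The kinase genes Aurka, Bub1 and Bub1b were not tested. Aurka was above the level in AGM-s3-A9 alone (65.6, against 30.6 in AGM-s3-A7 and 46.9 in OP9), as was Bub1 (57.2, against 17.8 and 21.1), and Bub1b was below it in all 3 lines.

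Promoters of the mitosis and S phase genes differ in the elements they are known to carry, and the members' promoters were searched for them. Late cell cycle promoters are known for the cell cycle genes homology region (CHR), bound by the DREAM and MuvB complexes, often beside CCAAT boxes bound by NF-Y, and replication gene promoters for E2F sites. The RefSeq table of GRCm38.p6 held promoters of 38 of the 48 members, each running from 250 bases before to 50 bases after a transcript start. The letters searched on both strands were TTTGAA for CHR, CCAAT for NF-Y and TTTCCCGC or TTTGGCGC for E2F; none of these lies within another. TTTGAA was found in 10 of 15 mitosis promoters (66.7%), 1 of 19 S phase promoters and 0 of 9 G1 promoters, beside 11.7% of the 8608 promoters of all tested genes and 17.9% of all 32851 in the table. CCAAT was found in 13 of 15 mitosis promoters (86.7%), 12 of 19 S phase promoters (63.2%) and 4 of 9 G1 promoters (44.4%), beside 37.1% of those of all tested genes. An E2F match was found in 7 of 19 S phase promoters (36.8%), 1 of 9 in G1 and 0 of 15 in mitosis, beside 2.90% of those of all tested genes. The contrast was weaker among the further genes of these processes described below. There TTTGAA was found in 71.1% of mitosis, 21.1% of S phase and 26.1% of G1 promoters. E2F matches were found in 7.89%, 18.4% and 21.7% of them. In the mitosis list the 14 CHR matches began between 179 bases before and base 41 after the start, 11 of them within 100 bases of it. A match of letters describes the sequence and does not show that a factor binds there.

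The lines that follow give the stretches from 150 bases before to 50 bases after the start of 4 mitosis genes that carry TTTGAA and for which AGM-s3-A9 was more than 2-fold above AGM-s3-A7, and of Mcm3 as an S phase promoter with E2F matches. Capitals mark TTTGAA and CCAAT on either strand in the mitosis genes and the E2F letters in Mcm3. All 5 lie on the minus strand of GRCm38.p6: Ccnb2 at chr9:70421505-70421704, Cdc20 at chr4:118437294-118437493, Mki67 at chr7:135716330-135716529, Top2a at chr11:99024140-99024339 and Mcm3 at chr1:20820263-20820462.
Ccnb2: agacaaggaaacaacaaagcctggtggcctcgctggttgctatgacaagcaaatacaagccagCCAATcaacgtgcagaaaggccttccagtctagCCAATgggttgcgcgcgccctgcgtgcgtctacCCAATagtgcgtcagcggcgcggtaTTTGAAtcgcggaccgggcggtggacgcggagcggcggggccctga
Cdc20: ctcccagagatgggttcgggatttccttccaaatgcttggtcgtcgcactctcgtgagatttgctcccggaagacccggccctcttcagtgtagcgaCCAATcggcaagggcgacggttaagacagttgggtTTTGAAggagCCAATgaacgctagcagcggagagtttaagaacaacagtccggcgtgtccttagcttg
Mki67: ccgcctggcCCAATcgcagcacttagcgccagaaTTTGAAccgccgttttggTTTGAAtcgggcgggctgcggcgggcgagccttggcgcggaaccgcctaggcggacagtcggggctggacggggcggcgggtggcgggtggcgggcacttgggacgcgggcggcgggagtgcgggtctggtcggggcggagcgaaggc
Top2a: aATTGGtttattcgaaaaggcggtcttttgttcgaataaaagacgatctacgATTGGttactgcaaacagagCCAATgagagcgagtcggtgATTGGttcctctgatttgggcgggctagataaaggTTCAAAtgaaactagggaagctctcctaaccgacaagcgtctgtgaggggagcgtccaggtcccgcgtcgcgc
Mcm3: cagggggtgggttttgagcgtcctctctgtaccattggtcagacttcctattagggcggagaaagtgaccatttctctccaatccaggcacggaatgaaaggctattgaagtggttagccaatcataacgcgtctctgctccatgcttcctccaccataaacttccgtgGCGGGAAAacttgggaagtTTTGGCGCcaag

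In Ccnb2, which had the 3 evenly spaced CCAAT boxes beginning 87, 54 and 21 bases before the start, a CHR match began at base 5 and another lay upstream of the stretch shown. In Cdc20 a match began 18 bases before the start between CCAAT boxes at 53 and 8. Mki67 had its matches further upstream, beginning 116 and 98 bases before the start, and Top2a had 1 on the opposite strand beginning 23 bases before it, with another further upstream. Cenpe, which was at least 2-fold higher in both AGM-s3-A9 and OP9, had a CCAAT box and no TTTGAA in this window. TTTGAA was also found in Plk1, Cdk1, Kif11 and Cenpa, for which AGM-s3-A9 did not reach 2-fold above AGM-s3-A7, and in Aurka and Bub1b, which were not tested. Aurkb and Tpx2 were among the 10 members with no promoter in the table.

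**Figure D3:**
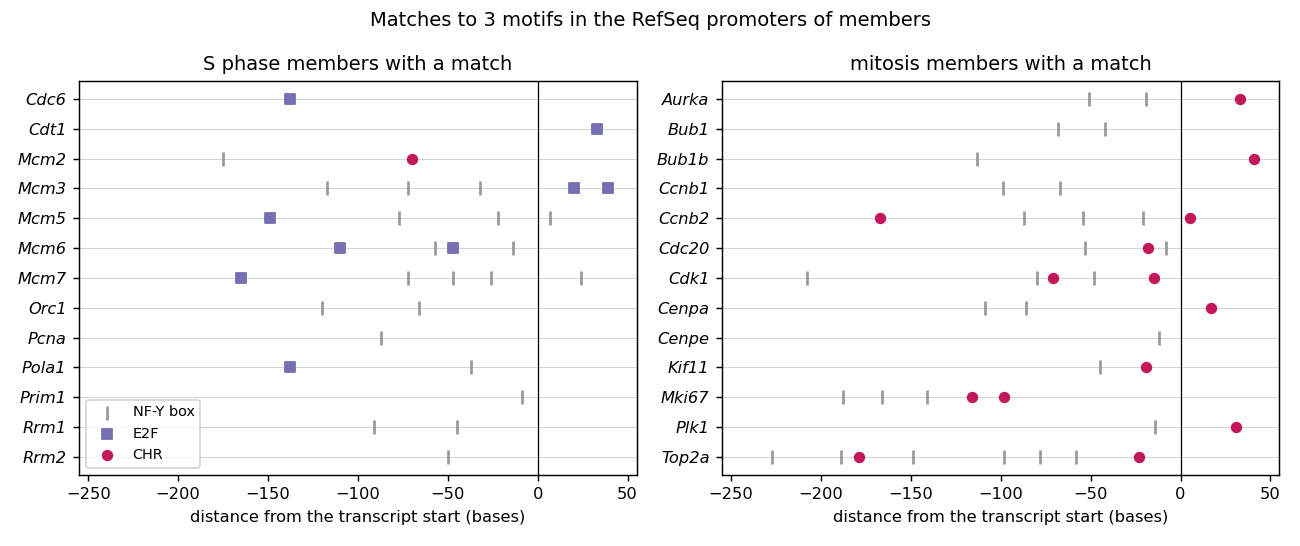
Positions of the first base of each match in the RefSeq promoters of S phase and mitosis members (rows), in bases from the transcript start; circles are CHR, squares E2F and bars the NF-Y box. Circles lie in 10 mitosis promoters and 1 S phase promoter, and squares in 7 S phase promoters and no mitosis promoter.

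The S phase list divides into genes that load origins, genes that copy DNA and genes that supply nucleotides. Among subunits of the MCM helicase, Mcm2 was at 118 in AGM-s3-A7, next to 126 in AGM-s3-A9 and 325 in OP9, so that OP9 stood 2.76-fold above AGM-s3-A7 while the AGM lines differed by 1.07-fold. Mcm4 was at 112, 183 and 270, so AGM-s3-A9 was 1.63-fold and OP9 2.41-fold above AGM-s3-A7. Mcm3 (189, 235 and 329) and Mcm7 (165, 235 and 276) had the same order, with OP9 1.74-fold and 1.67-fold above AGM-s3-A7. Mcm5 gave no single direction: the probe set that represents it, on MG-U74C and with a suffix for possible cross-hybridisation, read 548, 443 and 339, and its MG-U74A probe set read 147, 356 and 287. On the latter AGM-s3-A9 was 2.42-fold and OP9 1.95-fold above AGM-s3-A7. The choice between them rests on intensities from different array types. On MG-U74A alone 1 S phase member, in place of 0, had AGM-s3-A9 at least 2-fold above AGM-s3-A7. Of all genes tested on that array type 3.19% did. With probe sets of possible cross-hybridisation left out, 1 S phase member was likewise at least 2-fold higher, beside 3.17% of all genes tested under that setting.

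Of the licensing factors, Cdc6, which loads the helicase with the origin complex, was at 61.5, 82.6 and 76.1, and Cdt1, its partner, at 163, 131 and 227. Cdt1 was thus highest in OP9, 1.74-fold above AGM-s3-A9. Its second tested probe set put AGM-s3-A9 1.60-fold and OP9 1.98-fold above AGM-s3-A7. Of the replication fork genes, Pcna, the sliding clamp, was at 292 in AGM-s3-A7, compared with 494 in AGM-s3-A9 and 353 in OP9. Pcna was thus highest in AGM-s3-A9, 1.69-fold above AGM-s3-A7, and OP9 was 1.21-fold above AGM-s3-A7. Lig1, DNA ligase I, did not follow the clamp, at 132, 127 and 103, and Pola1, the catalytic subunit of polymerase alpha, was at 47.2, 74.9 and 55.3, below detection in AGM-s3-A7, so that AGM-s3-A9 was at least 1.53-fold above it.

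For nucleotide supply, Rrm2, the subunit of ribonucleotide reductase that limits its activity in S phase, was at 67.7 in AGM-s3-A7, beside 110 in AGM-s3-A9 and 194 in OP9. AGM-s3-A9 was 1.62-fold and OP9 2.87-fold above AGM-s3-A7, the latter being the largest OP9 ratio of the S phase list. The large subunit Rrm1 differed less, at 175, 252 and 205. Tk1, thymidine kinase 1, was at 200, 308 and 192, so that AGM-s3-A9 was 1.54-fold above AGM-s3-A7 and OP9 was not above it on this probe set. Mcm6, Orc1, Gmnn, Prim1 and Tyms were below the detection level in all 3 lines and were not tested. For Tyms, further probe sets carry a pseudogene symbol beside it and were not used.

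In G1 the D-type cyclins, which couple growth signals to the cycle, behaved differently from each other. Ccnd1 was at 279 in AGM-s3-A7, next to 396 in AGM-s3-A9 and 871 in OP9, so OP9 was 3.12-fold and AGM-s3-A9 1.42-fold above AGM-s3-A7. Its 3 tested probe sets gave OP9 ratios of 3.12-fold, 2.33-fold and at least 3.86-fold. Ccnd2 was at 118, 84.5 and 396, so OP9 was 3.36-fold above AGM-s3-A7 while AGM-s3-A9 was 1.39-fold below it. Ccnd3 was nearly level, at 210, 270 and 225. OP9 was therefore the line with the highest Ccnd1 and Ccnd2, and no line stood out for Ccnd3.

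The kinase and E2F genes differed less than these cyclins. Cdk4, the partner of the D-type cyclins, was at 1130 in AGM-s3-A7, compared with 1302 in AGM-s3-A9 and 1427 in OP9 on its brightest probe set. A dimmer one read 498, 376 and 210, with OP9 2.37-fold below AGM-s3-A7, so the probe sets gave opposite directions. Cdk2 was at 110, 121 and 89.8 and its cyclin gene Ccne1 at 108, 127 and 162, highest in OP9. E2f1, an activating E2F factor, was between 61.4 and 76.1. Among the brakes of G1, Cdkn2c, which encodes the Cdk4 and Cdk6 inhibitor p18, was highest in AGM-s3-A7, at 280 against 204 in AGM-s3-A9 and 165 in OP9. AGM-s3-A9 was 1.37-fold and OP9 1.69-fold lower. Cdkn1b, the p27 gene, was below the detection level in all lines, between 16.2 and 24.8 on its brighter probe set. Rb1, the retinoblastoma gene, and Ccne2 were above it in OP9 alone, at 60.7 and 65.5, and were not tested.

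For 7 members 2 or 3 probe sets were tested, and these did not always give 1 direction. The log2 ratios of AGM-s3-A9 to AGM-s3-A7 lay on both sides of 0 for 3 of them, Cdk4, Mcm5 and Cdt1, and those of OP9 to AGM-s3-A7 for Cdk4, Mcm5 and Tk1. Ccnd1 and Mcm3 gave 1 direction in both comparisons. For Plk1 the second probe set, with a suffix for possible cross-hybridisation, was below the detection level in both AGM lines and gave no difference between them. On it the log2 ratio of AGM-s3-A9 to OP9 was -0.80, with AGM-s3-A9 raised to the level, against 0.40 on the brightest probe set of Plk1. The ratios of AGM-s3-A9 to OP9 lay on both sides of 0 for Cdk4 and Tk1 as well. When each gene was given the median of its tested probe sets, the G1 median for OP9 against AGM-s3-A7 went from 0.22 to -0.01, and Cdk4 from 0.34 to -0.45.

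**Figure D4:**
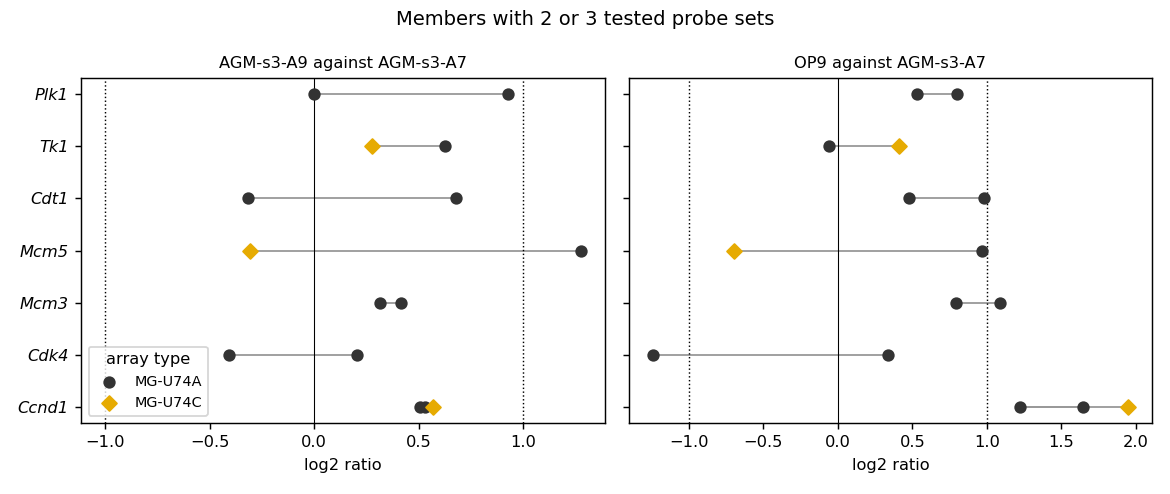
Log2 ratios of each tested probe set of the 7 members with more than 1, joined by a line per gene, for AGM-s3-A9 and OP9 against AGM-s3-A7; circles are MG-U74A and diamonds MG-U74C, and dotted lines mark 2-fold. Ccnd1 keeps to 1 side of 0 in both panels, whereas Mcm5 spans -0.69 to 0.97 in OP9.

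Position on the chromosomes moved with the OP9 result. Of the 10 members for which OP9 was at least 2-fold above AGM-s3-A7, 3 (Ccnd2, Mad2l1 and Mcm2) lie on chromosome 6 in GRCm38.p6, and these are all the tested members there. The 445 other tested genes of chromosome 6 had a median log2 ratio of 0.40 for OP9 against AGM-s3-A7, with 18.2% of them at least 2-fold higher. Leaving out chromosome 15, at -0.51, the medians of the other 18 chromosomes ran from -0.27 to 0.18. With the median of the same chromosome subtracted, the log2 ratios were 1.35 for Ccnd2, 1.16 for Mad2l1 and 1.07 for Mcm2, so these genes were above 2-fold under this setting too. Under the same setting 3 in place of 5 mitosis members were at least 2-fold higher (against 4.40% of all tested genes). Between the AGM lines the median of chromosome 6 was -0.01. Whether chromosome copy number differs between the lines was not tested.

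**Figure D5:**
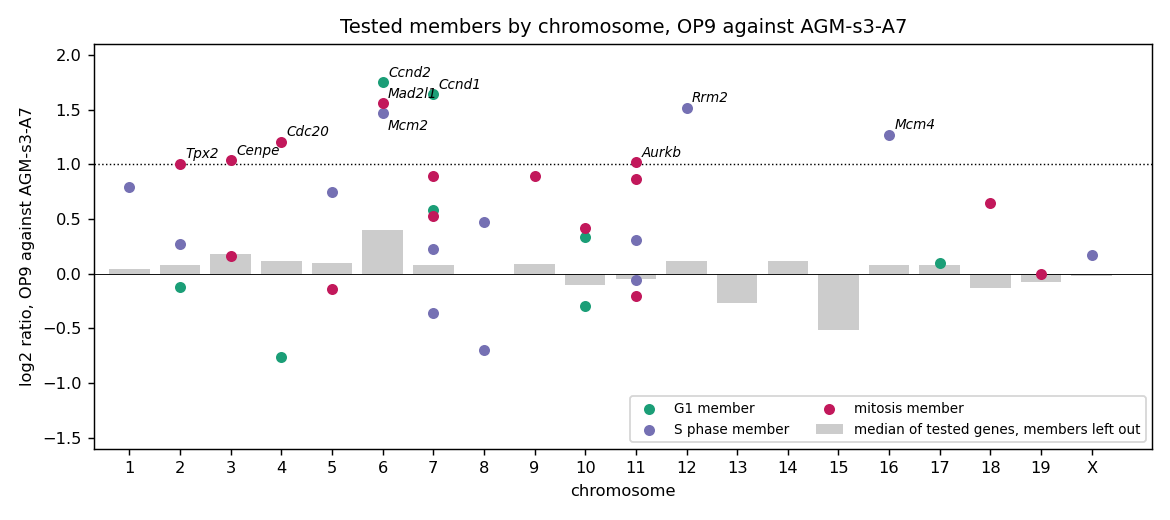
Log2 ratio of OP9 against AGM-s3-A7 for the tested members (points, coloured by list) at their chromosome, with the median of the other tested genes of each chromosome as a grey bar and 2-fold as a dotted line. Chromosome 6 has the highest bar, at 0.40, and holds Ccnd2, Mad2l1 and Mcm2.

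Set directly against each other, AGM-s3-A9 and OP9 differed most, among the tested members, in Ccnd2, Mcm2 and Ccnd1. The median log2 ratio of AGM-s3-A9 against OP9 was 0.25 over the mitosis members, 0.12 in S phase and -0.16 in G1, beside -0.02 over all tested genes. Of the 36 tested members 0 had AGM-s3-A9 at least 2-fold above OP9 (against 7.02% of all tested genes) and 3 had it at least 2-fold below (8.33%, against 5.32%). These were Ccnd2, 4.69-fold lower, Mcm2, 2.57-fold lower, and Ccnd1, 2.20-fold lower. The largest ratio in the other direction was that of Birc5, 1.94-fold higher in AGM-s3-A9. This comparison uses the AGM-s3-A9 and OP9 arrays of the comparisons above.

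Other genes of the same processes were taken from lists by role. These lists too were chosen with earlier results of these data known, so their shares are not an independent check of the member results. Of 31 tested further mitosis genes, 3 had AGM-s3-A9 at least 2-fold above AGM-s3-A7 and 0 below, and 4 had OP9 above it and 0 below, with medians of 0.46 and 0.31. These are 9.68% and 12.9%, against 3.22% and 5.40% of all tested genes. Smc2, a condensin subunit gene, was at 49.7 in AGM-s3-A7, beside 135 in AGM-s3-A9 and 142 in OP9, an excess of 2.72-fold and 2.87-fold. Cks2, a Cdk1 subunit gene, was at 74.1, 180 and 150, and Ckap2, which encodes a spindle protein, at 69.0, 133 and 222. Kif20a, a cytokinesis kinesin gene, was at 120, 264 and 154 on a probe set with a suffix for possible cross-hybridisation. For Smc2, Cks2, Ckap2 and Kif20a AGM-s3-A7 was the lowest line. Of 23 tested further S phase genes, 2 had AGM-s3-A9 and 2 had OP9 at least 2-fold above AGM-s3-A7, and 0 had either below it, with medians of 0.33 and 0.41. Each count of 2 is 8.70%, against the same 3.22% and 5.40%. Pold2, a subunit of polymerase delta, was at 105, 322 and 279, 3.05-fold and 2.65-fold higher. Pold2 is in both counts, and its only probe set carries a suffix for possible cross-hybridisation. Rfc2, of the clamp loader, was at 90.3, 183 and 133. Rpa3, of the single-strand binding complex, was at 152, 161 and 324 and lies on chromosome 6, and Rfc1 was at 109, 84.3 and 168.

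The further G1 genes did not share one direction. Of 16 tested, 2 had AGM-s3-A9 at least 2-fold above AGM-s3-A7 and 3 below it, and for OP9 these numbers were 2 and 1, with medians of 0.02 and 0.06. In AGM-s3-A9 the shares were 12.5% above and 18.8% below, against 3.22% and 2.31% of all tested genes, and in OP9 12.5% and 6.25%, against 5.40% and 6.30%. Cdkn1a, which encodes the kinase inhibitor p21, was at 79.8 in AGM-s3-A7, next to 174 in AGM-s3-A9 and 538 in OP9. It was thus 6.73-fold higher in OP9, a line in which the mitosis median was also above AGM-s3-A7. Cdkn2a, the locus of p16 and p19Arf, was at 135 in OP9 and below the detection level in both AGM lines, at least 2.76-fold higher. Cdkn1c, the p57 gene, had 145 in AGM-s3-A7, while AGM-s3-A9 (25.4) and OP9 (17.0) were below detection and so at least 2.96-fold lower. Cdk6, a partner of the D-type cyclins, was likewise highest in AGM-s3-A7, at 154 against 63.1 in AGM-s3-A9 and 77.2 in OP9. AGM-s3-A7 was thus the line with the highest Cdkn1c and Cdk6.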

How the data were processed

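The authors deposited an intensity, on a linear scale, for each probe set of each of 9 arrays. Per the labels' protocols, biotinylated cRNA was made from 6 ug of total RNA; for scanner software, summarisation and scaling, nothing is given in the sources used here. Of the probe sets, 29131 carried exactly 1 gene symbol in the platform annotation, and they represent 15964 genes. Python 3.11.15 with numpy 2.4.6 and pandas 2.3.3 was used for quantile normalization of log2 intensities within each array type, which makes the distributions of the 3 lines equal and would remove a shift of all transcripts. Where a gene has probe sets on several array types, the one with the highest mean is taken across them, although array types were normalized separately. The steps were tested on simulated data. Changes were planted there only in bright probe sets, so that test does not cover genes near the detection level. There are no replicates, so no p-value is given, and the number of arrays limits the precision. All members are accounted for; values in each line are given for those past 2-fold in a pair of lines and for a set always named (Mki67, Pcna, the D-type cyclins, Cdk1, Cdk2, Cdk4, Rb1, Cdkn1b, Cdkn2c), other members serve as examples of their role, and each further list gives the 4 genes with the largest fold. Members and lists were chosen with earlier results of these data known. For members, 10 alternatives were tried.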

Additional observations from a re-analysis of the deposited data

How the results depend on the processing

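The directions of the 3 medians over the tested members held under every alternative tried. The median log2 ratio of AGM-s3-A9 to AGM-s3-A7 (0.52) was 0.649 with arrays scaled to a common median, 0.336 with the detection level at the 75th percentile and 0.358 with no filter; that of OP9 to AGM-s3-A7 (0.50) was 0.601, 0.421 and 0.275 under these, 0.618 when a gene took the median of its probe sets and 0.586 when probe sets with a cross-hybridisation suffix were dropped. For AGM-s3-A9 against OP9 (0.15) it was 0.0784 with the 75th percentile and 0.239 with chromosome medians subtracted. Members at least 2-fold higher numbered 1 in place of 7 and 2 in place of 10 with the level at the 75th percentile, where 22 members were tested (all tested genes: 2.59% and 4.77%), and 16 and 17 at a fold of 1.5 (all tested genes: 10.7% and 14.8%). At that fold OP9 was below AGM-s3-A7 for 2 (all tested genes: 14.0%). Between AGM-s3-A9 and OP9, 2 were higher and 6 lower in AGM-s3-A9 (all tested genes: 14.9% and 15.1%). With arrays scaled to a common median OP9 was at least 2-fold below AGM-s3-A7 for 1 member (all tested genes: 6.74%). When a gene took the median of its probe sets, the G1 median changed sign, to -0.0118 in OP9 against AGM-s3-A7 and 0.0363 in AGM-s3-A9 against OP9, where Cdk4 went from -0.13 to 0.35; no other cause was tested. No scaling moved the median of all tested genes by as much as 0.1. Leaving out a replicate was not possible. Signal near background limits the dim mitosis genes, for which AGM-s3-A7 gives bounds.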
